A study of Mus musculus with 4 samples.

Results

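The proteasome genes examined here were all probe sets of both array types whose platform annotation gave 1 gene symbol beginning with Psma, Psmb, Psmc, Psmd, Psme or Psmg. The rule found 54 probe sets of 41 genes among 13069 non-control probe sets, of which 7542 carried 1 symbol and stood for 6137 genes. Array type A held 41 of the 54 and array type B held 13. The genes were grouped as core alpha, core beta, immunoproteasome, base, lid, activator and assembly chaperones. Psmc3ip, a recombination factor, and Psme3ip1, a protein that binds an activator, met the rule by their names but encode neither a subunit nor a chaperone. They are kept apart from these groups but are counted among the 41 genes.

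The cells were peritoneal exudate cells of wild-type (+/+) mice and of C/EBP epsilon-deficient (-/-) mice, both on a mixed 129/SvEv x NIH Black Swiss background and 6 to 8 weeks old. C/EBP epsilon, encoded by Cebpe, is a transcription factor of late myeloid development. Per the labels, 4 mice of each genotype were injected with 2 ml of 4% thioglycollate broth, an irritant that draws white blood cells into the peritoneum, and the cells were washed out after 24 h. Total RNA of each genotype was read on 1 array of type A and 1 of type B, which hold different probe sets, so the 2 arrays of a genotype are not replicates. The text on how cells were combined breaks off, and for the deficient array of type B only the title names the deficiency. The labels put both genotypes at about 30% monocytes, 60% neutrophils and 7 to 10% lymphocytes by differential counts of 100 to 200 cells. In such bulk RNA, fewer cells of a type and less RNA per cell cannot be told apart.

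The proteasome breaks down proteins tagged with ubiquitin. Its core is a barrel of stacked rings: the outer rings are made of alpha subunits, which gate the entry, and the inner rings of beta subunits, some of which cut peptide bonds. The regulatory particle caps the barrel, with a base of ATPases that unfold substrates and a lid that removes ubiquitin, while separate activators can open the core without ubiquitin. In white blood cells, and under interferon gamma, the catalytic beta subunits can be exchanged for immunoproteasome subunits, which yield peptides well suited to MHC class I molecules.

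Values are intensities scaled within an array type to a common trimmed mean. The floor was the median of both arrays of a type, 1036.5 on A and 690.17 on B. A log2 ratio, deficient over wild-type, was formed where both arrays exceeded the floor. Where 1 array did, the value is a bound against the floor, and where neither did there is no ratio. A gene with several measured probe sets was read by the brightest relative to its floor. The error given with a ratio is a pooled SD between probe sets that repeat a gene, 0.34 at 3 times the floor or more (245 genes) and 0.46 below that (74 genes). It holds no spread between mice, and with 1 array per genotype and type there is no test and no p-value.

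Over the arrays as a whole, the 2 genotypes ranked probe sets alike, with a Spearman rho across probe sets of 0.93 on A and 0.92 on B, and 20.7% to 29.3% of the values lay below 0. No probe set annotated to Cebpe was among those analysed, so the deletion was not checked here. The myeloid label was borne out by bright markers. S100a8, a neutrophil marker, read 66439 in wild-type cells and 62884 in deficient ones, and Cd68, a macrophage lysosomal protein, read 41549 and 50819. Among T and NK genes, the CD3 chain genes Cd3d and Cd3g were below the floor on both arrays. Cd3e, another CD3 chain gene, cleared it only in wild-type cells, at 1901 against 921, a bound of -0.88. Gzma read 4383 in wild-type cells and 2768 in deficient ones.

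Of the 41 proteasome genes, 33 had a ratio, 3 a bound and 5 neither. The ratio was below 0 for 25 of the 33 genes (75.8%), against 49% of the 3132 genes measured on these arrays. The median was -0.33, against 0.01 over all measured genes. Leaving out Psmc3ip and Psme3ip1, 25 of 32 genes (78.1%) lay below 0, with a median of -0.35. By probe set, 32 of 41 lay below 0, against a background of 48.2%. Among genes at 3 times the floor or more, 23 of 28 proteasome genes lay below 0, against 49.4% of all such genes. The differences were mostly small. Psma4 and Psmb10 were 2-fold or more lower, where 3.64% of all measured genes were, and 0 proteasome genes were 2-fold or more higher, where 3% were. Psma4, Psma6, Psmb4, Psmb6, Psmb8, Psmb10 and Psmd3, 7 of 33 genes, were lower by more than 2 error SDs, against a background of 7.15%. None was higher by that much, against 6.51%, and 13 lay within 1 error SD of no difference. Scaling to the bacterial spike-in controls moved the median of all measured genes up by 0.23, and 29.4% of them were then below 0. Under that scaling 18 proteasome genes were lower and 15 higher, Psma4 and Psmb10 alone were lower by more than 2 error SDs (3.53% of all genes), and Psmd5, Psmd8 and Psmg4 were higher by as much (14.0% of all genes). Equal array medians also gave 7 genes, with Psma2 and Psmd14 in place of Psmb4 and Psmb6.

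The sub-complex medians were not alike, though 5 of 6 core alpha, 4 of 5 base and 6 of 7 lid genes lay below 0. The median was -0.56 for core alpha, -0.49 for core beta and -0.84 for the immunoproteasome. It was -0.06 for the base and -0.17 for the lid. Both turned positive, to 0.15 and 0.030, under bacterial-control scaling, and the base also did, to 0.0035, under equal array medians. Some other settings moved them down. The base was -0.39 with the floor at the 70th percentile (3 genes) and on type B alone (1 gene). The lid was -0.53 on type B alone (3 genes). On type A alone the base was -0.051 (4 genes) and the lid -0.17 (6 genes). The 2 measured activator genes had a median of 0.13, which turned to -0.0033 with the floor lowered to the 30th percentile, and the 3 measured chaperones one of 0.37. Medians were also taken relative to each type's median over all probe sets under bacterial-control scaling. Core alpha then stood at -0.57, core beta at -0.49, the immunoproteasome at -0.85, the base at -0.07 and the lid at -0.18. By that relative measure 26 of 33 genes were lower, under quantile and loess scaling as well. Scalings by 1 factor per array give nearly the same relative values by construction. They differ only in which probe sets clear the floor, which was set after scaling.

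**Figure D1:**
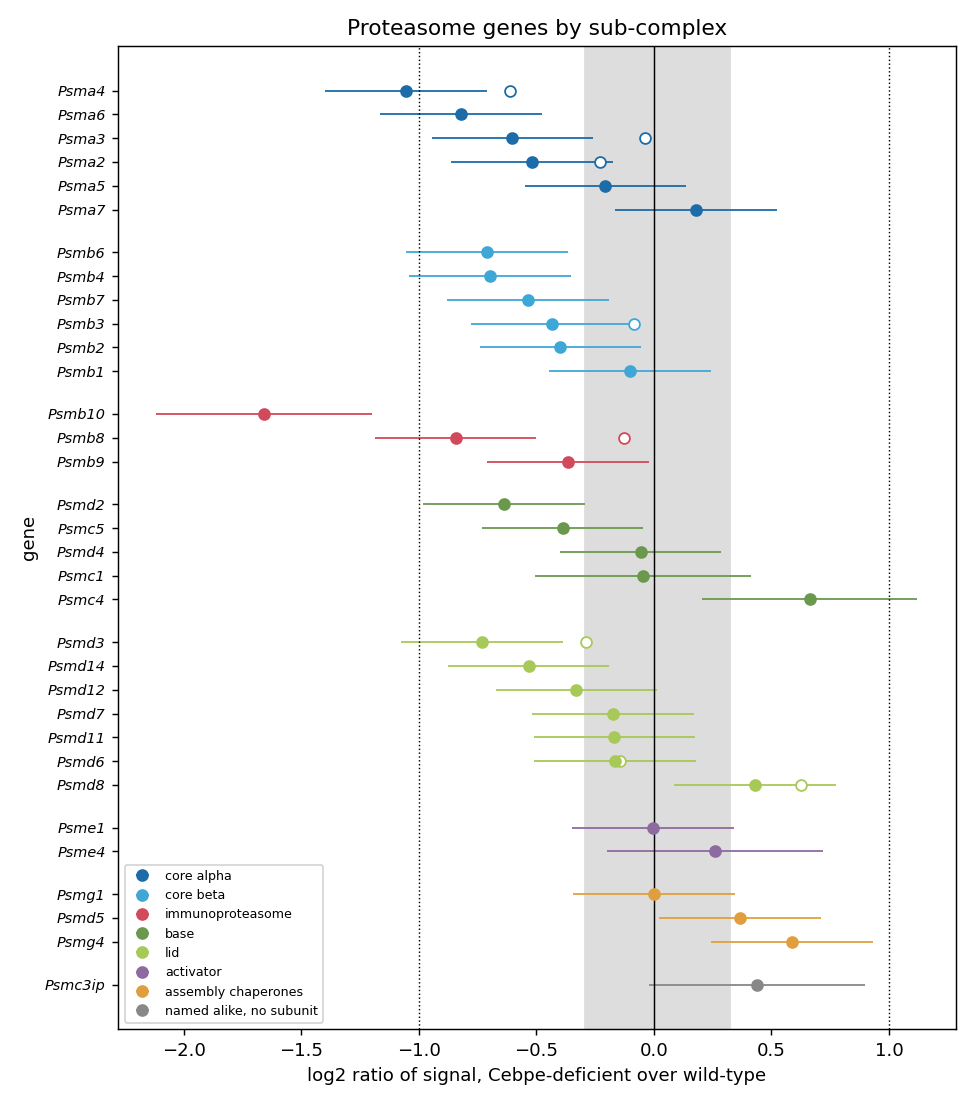
Each filled point is a measured gene's log2 ratio of signal (deficient over wild-type), the bar is 1 error SD from repeat probe sets, open points are a gene's other measured probe set, the grey band spans the middle part of all measured genes (first to last quartile, -0.29 to 0.32) and dotted lines mark 2-fold. Core alpha, core beta and immunoproteasome genes lie mostly left of the band. Of 12 base and lid genes 10 lie left of 0 (the base and lid medians turn positive under bacterial-control scaling), and the chaperones lie at or right of 0.

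Core alpha genes encode the gating rings. Psma4 read 17169 in wild-type cells and 8267 in deficient ones, a log2 ratio of -1.05 ± 0.34 (error SD), just past 2-fold. Its other probe set read 4702 and 3079, a ratio of -0.61, so the 2-fold call rests on the brighter probe set. Psma6 read 17254 and 9771, a ratio of -0.82 ± 0.34. Both genes read lower in the deficient cells on every measured probe set.

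Psma3 read 11163 in wild-type cells and 7353 in deficient ones, a ratio of -0.60, while its dimmer probe set, at 2732 and 2662, gave -0.04. Psma2, on array type B, read 15247 and 10637 by its brighter probe set, a ratio of -0.52, and 11233 and 9591 by the other, a ratio of -0.23. Psma5 read 6051 and 5244, a ratio of -0.21, within 1 error SD of 0. Psma7 was the exception among the alpha rings at 4593 and 5202, a ratio of 0.18 that also lay within 1 error SD. In all, 5 of the 6 measured alpha genes were lower in the deficient cells. Averaging a gene's probe sets in place of taking the brightest made the core alpha median -0.35.

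The RefSeq promoter windows (build GRCm38.p6, 250 bases before to 50 after the start) were searched on both strands for 5 motifs: the antioxidant response element core TGACNNNGC, bound by NFE2L1 and NFE2L2; the interferon-stimulated response element core GAAANNGAA; the gamma-activated site TTCNNNGAA; the NF-Y box CCAAT; and a C/EBP site, TTGCNNAAT. Of 39 proteasome genes 33 had a window, leaving out the 2 that only share the naming. The NF-Y box was in a window of 4 of the 6 alpha genes, against 41.1% of all 27025 genes with a window. Psma3, with 3 boxes, and Psma6, with 2 in the first of its windows, are shown. They held the most among alpha genes that read lower. The other Psma6 window held none of the 5 motifs. Capitals mark the boxes in either orientation. The Psma3 boxes start at -139, 13 and 30 from the start, and those of Psma6 at -136 and -29. Psma4, the lowest alpha gene, held none of the 5 motifs in its window.
Psma3, chr12:70974373-70974672, plus strand: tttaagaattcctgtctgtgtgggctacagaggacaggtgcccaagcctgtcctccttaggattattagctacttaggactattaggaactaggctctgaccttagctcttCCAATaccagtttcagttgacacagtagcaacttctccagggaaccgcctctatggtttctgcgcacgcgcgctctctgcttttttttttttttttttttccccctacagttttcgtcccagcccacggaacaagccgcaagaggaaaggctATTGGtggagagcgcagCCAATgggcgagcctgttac
Psma6, chr12:55383972-55384271, plus strand: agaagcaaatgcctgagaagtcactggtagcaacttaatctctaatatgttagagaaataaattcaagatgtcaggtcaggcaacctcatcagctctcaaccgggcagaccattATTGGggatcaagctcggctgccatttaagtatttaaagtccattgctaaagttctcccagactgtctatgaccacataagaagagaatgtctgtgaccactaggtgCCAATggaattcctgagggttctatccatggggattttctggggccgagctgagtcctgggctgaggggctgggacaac

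Core beta genes encode the inner rings. Psmb6 and Psmb7 carry constitutive active sites, and Psmb5, which carries the other, was not analysed here because no probe set met the rule for it. Psmb6 read 11468 in wild-type cells and 7002 in deficient ones, a log2 ratio of -0.71 ± 0.34. Psmb7 read 5407 and 3728, a ratio of -0.54 ± 0.34. Both measured catalytic subunits thus read lower in deficient cells, Psmb6 by more than 2 error SDs.

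Among the structural beta subunits, Psmb4 read 12413 and 7661, a ratio of -0.70 ± 0.34, also beyond 2 error SDs. Psmb3 read 12086 and 8943, a ratio of -0.43, with -0.08 from a dimmer probe set at 3265 and 3081. Psmb2 read 10281 and 7803, a ratio of -0.40. Psmb1, the closest to 0, read 13010 and 12129 on type B, a ratio of -0.10 that turned positive under bacterial-control scaling, and its type A probe set was below the floor. All 6 measured beta genes were lower in the deficient cells under the main scaling. Of the 12 alpha and beta genes together, 11 were lower, with a median of -0.53.

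The core beta genes with a window were Psmb3, Psmb4 and Psmb6, and each held a motif other than the NF-Y box. Psmb3 and Psmb6 are shown. The Psmb4 window, not shown, holds an interferon-stimulated response element core at -3. The Psmb3 window holds an interferon-stimulated response element core at -162, NF-Y boxes at -85 and -43, and a C/EBP match at -31, the 1 such match among the 33 proteasome genes with a window (3.03%, against 2.77% of all genes). The Psmb6 window holds an antioxidant response element core at -9. Capitals mark the Psmb3 and Psmb6 matches, and none of them overlap.
Psmb3, chr11:97703184-97703483, plus strand: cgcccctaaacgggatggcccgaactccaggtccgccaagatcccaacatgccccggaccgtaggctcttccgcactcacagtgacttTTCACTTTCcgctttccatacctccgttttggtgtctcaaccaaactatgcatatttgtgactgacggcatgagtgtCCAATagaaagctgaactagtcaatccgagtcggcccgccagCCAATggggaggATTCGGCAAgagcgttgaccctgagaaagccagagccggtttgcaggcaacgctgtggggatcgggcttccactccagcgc
Psmb6, chr11:70525107-70525406, plus strand: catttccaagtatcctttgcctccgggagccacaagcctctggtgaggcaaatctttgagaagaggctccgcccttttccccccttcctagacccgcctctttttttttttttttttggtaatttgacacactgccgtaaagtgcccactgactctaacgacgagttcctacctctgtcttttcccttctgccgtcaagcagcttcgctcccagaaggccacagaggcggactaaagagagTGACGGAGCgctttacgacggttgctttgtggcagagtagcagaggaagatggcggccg

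The immunoproteasome genes read lower too, by unequal amounts. Psmb10, which replaces Psmb7 in the core, read 4680 in wild-type cells and 1483 in deficient ones, a log2 ratio of -1.66 ± 0.46 and the lowest of all proteasome genes. It rests on 1 probe set whose deficient value was close to the floor, and against a floor set at the 70th percentile it became a bound, at least 1.83-fold lower. Psmb8, which replaces Psmb5, read 12408 and 6911 on type B, a ratio of -0.84 ± 0.34. Its type A probe set read 7509 and 6867, a ratio of -0.13, so both were lower but the size differed by 0.72, the widest span between repeat probe sets of a proteasome gene. Psmb9, which replaces Psmb6, read 3435 and 2666 on type B, a ratio of -0.37, and its type A probe set was below the floor on both arrays. Taken as the mean over each gene's probe sets, the immunoproteasome median was -0.49 in place of -0.84.

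Set against their constitutive counterparts, Psmb10 was lower than Psmb7 by a difference of log2 ratios of -1.12 ± 0.57 (error SD), both on type A. Psmb9 minus Psmb6 was 0.35 ± 0.49, less than 1 error SD, with the 2 genes on different array types. The pair Psmb8 and Psmb5 was not measured. The difference exceeded 1 error SD for 1 of the 2 measured pairs, and in neither did it exceed 2. Such a difference shows unequal change only.

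Psmb8 and Psmb9 lie close together on chromosome 17, with Tap1 between them, in the order Psmb9, Tap1, Psmb8, Tap2, where Tap1 and Tap2 encode the transporter that carries proteasome peptides to class I molecules. Tap1 read 1605 in wild-type cells and 595 in deficient cells, a bound of -0.63, and Tap2 read 783 and -196, a bound of -0.18, both clearing the floor only in wild-type cells. All 4 genes of this stretch thus read lower in the deficient cells. Of all genes with a ratio 49% did, a share that holds no bounds such as those of Tap1 and Tap2. The Tap2 bound was under 1 error SD, and Psmb9 came to -0.015 under bacterial-control scaling. Windows of Psmb8 and Psmb9 are shown because the genes share this stretch: that of Psmb8 holds a gamma-activated site match at -97, and that of Psmb9 an NF-Y box on the other strand at -8, in capitals. The Psmb10 window held none of the 5 motifs.
Psmb8, chr17:34197945-34198244, plus strand: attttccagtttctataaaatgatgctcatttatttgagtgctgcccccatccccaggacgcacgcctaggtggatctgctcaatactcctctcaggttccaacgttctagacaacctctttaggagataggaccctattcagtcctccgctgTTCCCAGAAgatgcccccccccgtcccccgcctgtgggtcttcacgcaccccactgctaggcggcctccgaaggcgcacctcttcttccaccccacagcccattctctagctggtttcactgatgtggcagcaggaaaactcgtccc
Psmb9, chr17:34187281-34187580, minus strand: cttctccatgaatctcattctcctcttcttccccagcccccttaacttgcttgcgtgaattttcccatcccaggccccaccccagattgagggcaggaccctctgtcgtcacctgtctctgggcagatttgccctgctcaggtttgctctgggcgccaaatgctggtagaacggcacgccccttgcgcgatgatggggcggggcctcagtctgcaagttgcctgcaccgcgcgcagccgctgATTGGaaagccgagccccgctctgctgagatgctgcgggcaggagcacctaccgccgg

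**Figure D2:**
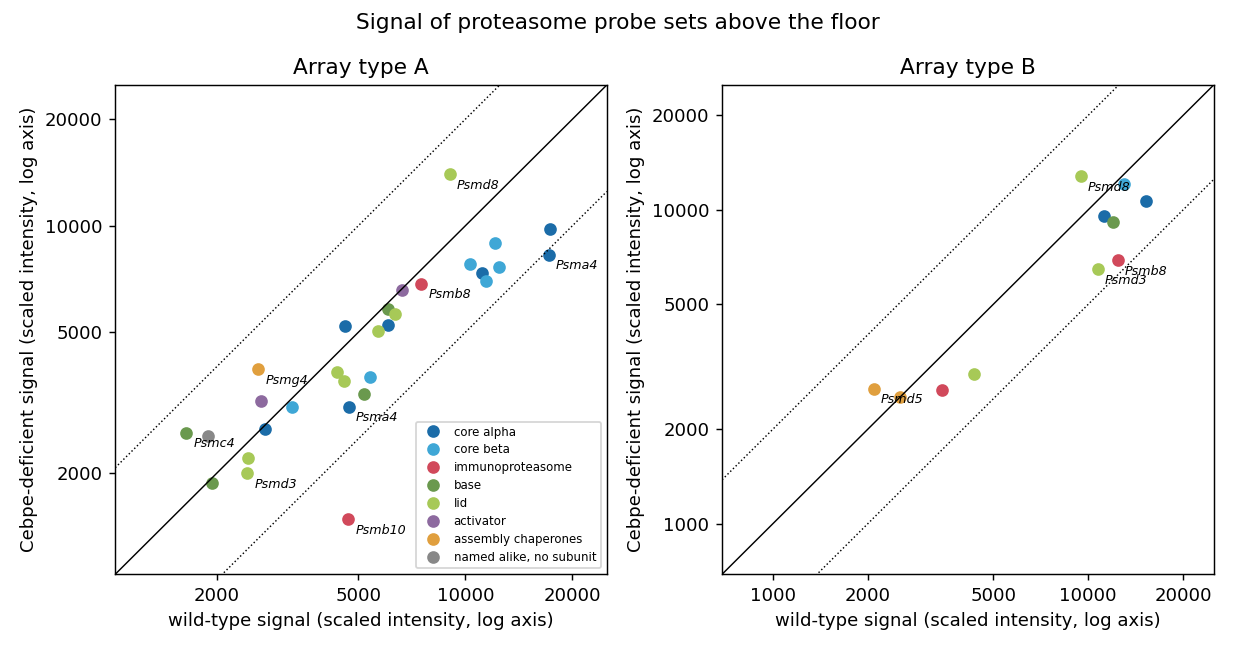
Each point is a proteasome probe set exceeding the floor on both arrays of its type, with scaled wild-type intensity on the x axis and scaled deficient intensity on the y axis (both log axes, starting at the floor), a solid line at equality and dotted lines at 2-fold. On type A, 24 of 30 points lie below the line of equality, and on type B 8 of 11. Of all measured probe sets, 48.2% lie below it on A and 48.2% on B.

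The base of the regulatory particle was mixed. Psmd2, a large scaffold subunit, read 5198 in wild-type cells and 3342 in deficient ones, a log2 ratio of -0.64 ± 0.34. Among the ATPases, Psmc5 read 12015 and 9175 on type B, a ratio of -0.39, Psmc1 read 1941 and 1882, a ratio of -0.05, and Psmc4 read 1643 and 2601, a ratio of 0.66 ± 0.46 and the highest of any proteasome gene. Psmd4, a ubiquitin receptor, read 6057 and 5823, a ratio of -0.06. The signs of Psmc1 and Psmd4 turned under equal medians and under bacterial-control scaling. None of the 5 measured base genes differed by more than 2 error SDs. Psmc2, Psmc3, Psmc6 and Psmd1 were below the floor on both arrays, so 4 of the 9 base genes gave no ratio.

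In the lid, 6 of 7 measured genes were lower. Psmd3, a scaffold subunit, read 10730 and 6456 on type B, a log2 ratio of -0.73 ± 0.34, and 2437 and 1997 on type A, a ratio of -0.29. It was the 1 lid gene beyond 2 error SDs. Psmd14, the deubiquitinase of the lid, read 4347 and 3003, a ratio of -0.53. Psmd12, another structural subunit, read 4565 and 3632, a ratio of -0.33, by 1 of its probe sets, the other being below the floor.

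Psmd7, the partner of Psmd14, read 4348 in wild-type cells and 3854 in deficient ones, a ratio of -0.17. The structural subunits Psmd11 and Psmd6 gave -0.17 (5670 and 5046) and -0.16 (6334 and 5650), and a second Psmd6 probe set gave -0.14. These 3 ratios lay within 1 error SD of 0 and turned positive under bacterial-control scaling. Psmd8, another structural subunit, went the other way on both array types, at 9479 and 12784 on B, a ratio of 0.43, and at 9036 and 13961 on A, a ratio of 0.63. It was the 1 gene with repeat probe sets that read higher.

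The activators were mixed. Psme1, a subunit of the interferon-inducible 11S activator, read 6621 and 6605, a log2 ratio of -0.0033. Psme4, the large activator PA200, read 2671 and 3196, a ratio of 0.26 ± 0.46. Psme3, the nuclear 11S activator, cleared the floor only in wild-type cells, at 1946 against 799 on A, at least 1.88-fold lower in deficient cells, and at 716 against 536 on B. A probe set annotated jointly to Psme2b and Psme2 was left out by the rule and read 11908 and 9035, a ratio of -0.40.

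The assembly chaperones, which help build the core and the base and then leave, were not lower in any of the 3 genes with a ratio under the main scaling. Psmg4, a core chaperone, read 2615 and 3929, a log2 ratio of 0.59 ± 0.34. Psmd5, a base chaperone, read 2090 and 2693, a ratio of 0.37 ± 0.34. Psmg1, another core chaperone, read 2533 and 2537, a ratio of 0.0018 whose sign turned under equal medians, quantile and loess scaling. Psmd9, also a base chaperone, cleared the floor only in wild-type cells, at 702, and Psmg3 on neither array. Of the 2 genes that only share the naming, Psmc3ip read 1885 and 2553, a ratio of 0.44, and Psme3ip1 read 1270 and 403, a bound of -0.29.

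**Figure D3:**
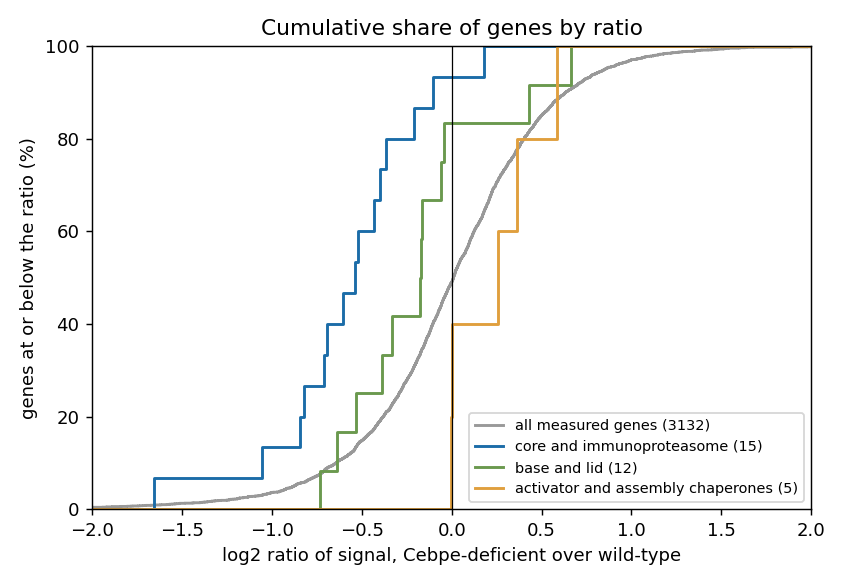
Lines give the share of genes (y axis, percent) at or below each log2 ratio, deficient over wild-type (x axis), for all 3132 measured genes, 15 core and immunoproteasome genes, 12 base and lid genes, and 5 activator and chaperone genes. At a ratio of 0 the core and immunoproteasome line has reached 93.3%, the base and lid line 83.3% and the line of all genes 49.0%; under bacterial-control scaling Psmb1 of the core and 5 base and lid genes cross to above 0.

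Repeat probe sets bear on how large these differences were. All 8 genes with 2 measured probe sets had the same sign on both. How often other genes did was not computed, so this count has no background beside it. The pooled SD of the 8 genes was 0.30, and their spans ran from 0.02 for Psmd6 to 0.72 for Psmb8. The Psmd6 probe sets bear the same sequence name. In all 8 the brighter probe set gave the more negative ratio, by a median of -0.40, whereas among 360 other genes with 2 measured probe sets 179 did so, with a median of 0.0018. Because a gene was read by its brightest probe set, the core alpha and immunoproteasome medians above are the larger of the available readings.

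The kind of probe set also differed between sub-complexes. Of the 54 proteasome probe sets, 43 had a suffixed name, by which the manufacturer marks probes that may be shared among related sequences, 30 of them the _s suffix and 10 the _f suffix. All 20 measured core and immunoproteasome probe sets were of these 2 kinds: 11 of 12 with _s and 8 of 8 with _f lay below 0. Over all measured probe sets the share below 0 was 46.0% with _s and 59.9% with _f. Without suffixed probe sets 6 proteasome genes were left, none of the core, of which Psmd4 and Psmd6 were lower and Psmc3ip, Psmd5, Psmd8 and Psme4 higher. Of all 1043 measured probe sets without a suffix, 43.3% lay below 0.

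**Figure D4:**
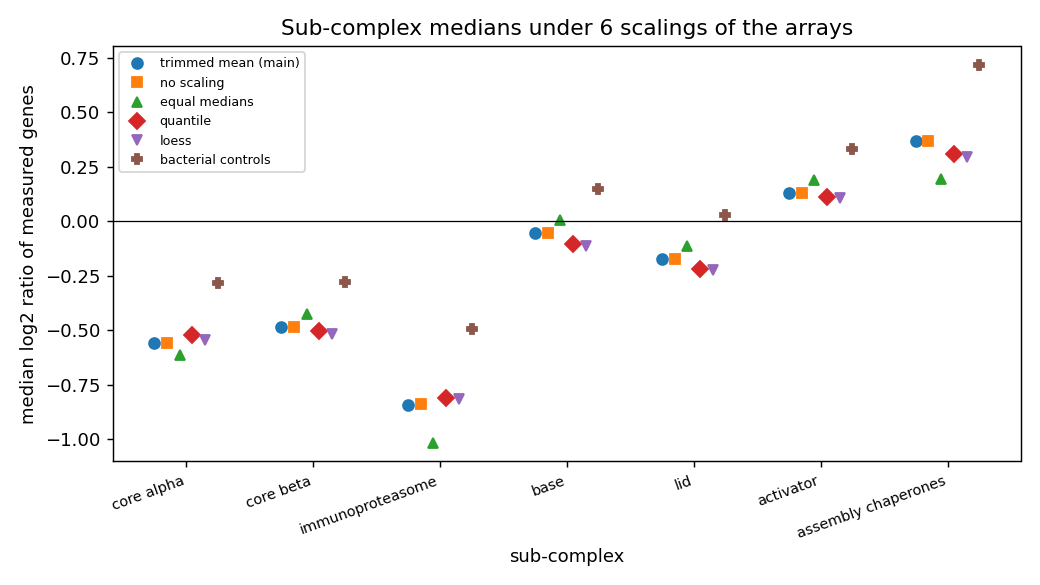
Each symbol is the median log2 ratio, deficient over wild-type (y axis), of a sub-complex's measured genes (x axis) under 1 of 6 ways of scaling the arrays. The core and immunoproteasome medians stay below 0 under all 6, the activator and chaperone medians above 0, and the lid turns to 0.030 and the base to 0.15 with the bacterial controls.

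Other genes of the pathway were read from lists. Of 15 accessory factors on the arrays 9 were measured, 4 lower and 5 higher, with a median of 0.02. Uchl5, a deubiquitinase that docks on the proteasome, read 3768 in wild-type cells and 1125 in deficient ones, a ratio of -1.74, and its other probe set a bound of -0.53. Rad23b, a shuttle for ubiquitinated proteins, read 1784 and 1300, a ratio of -0.46. The highest were Npepps, a peptidase, at 0.29 and Ufd1, a cofactor in substrate extraction, at 0.17. Sem1, a small lid subunit outside the naming rule, read 36994 and 37406, a ratio of 0.02.

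Of 7 transcription factors linked to proteasome genes, 3 were measured. Nfe2l2, the antioxidant response regulator, read 4339 in wild-type cells and 8536 in deficient ones, a ratio of 0.98. Nfe2l1, which drives proteasome genes when the proteasome is inhibited, read 5503 and 4256, a ratio of -0.37, and Mafg, a partner of both, read 3402 and 4705, a ratio of 0.47. Nfya, an NF-Y subunit, cleared the floor only in deficient cells, a bound of 0.54. The antioxidant response element core was in windows of 5 of the 33 proteasome genes (15.2%), against 14.0% of all genes. The NF-Y box was in 11 (33.3%), against 41.1%, and in Psmd14 a pair of boxes on opposite strands overlaps. A match describes the letters only.

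Of 9 class I presentation genes 7 were measured, 5 lower and 2 higher, with a median of -0.06. Calr, a chaperone of class I assembly, had the lowest ratio, -0.29, and B2m, the class I light chain, was next at -0.26, from 65404 and 54744. H2-K1, a class I heavy chain, was highest at 0.32 but gave -0.16 by another probe set. Tapbp, which bridges class I to the transporter, gave 0.03. With Tap1 and Tap2 at their bounds, 7 of 9 were lower and the median was -0.18.

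Of 14 interferon gamma response genes 7 were measured, 3 lower and 4 higher, with a median of 0.08 that became -0.11 with 3 more genes at their bounds. Ifngr1, a chain of the receptor, read 4895 in wild-type cells and 13379 in deficient ones, a ratio of 1.45, and Irf2, a transcription factor of the response, gave 0.21. Jak2, a receptor kinase, gave -0.80 by the probe set read and 0.12 and -0.17 by others. Cxcl10, an inducible chemokine, gave -0.73. Irf1, a main inducer of immunoproteasome genes, read 12327 and 8748, a ratio of -0.49. Gbp2, an inducible GTPase, cleared the floor only in wild-type cells, a bound of -1.72. The interferon-stimulated response element core was in windows of 7 of the 33 proteasome genes (21.2%), against 9.76% of all genes, and in none of the 3 immunoproteasome genes. The gamma-activated site was in 3 (9.09%), against 9.55%.

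Several marker lists read lower alongside the core genes. All 7 measured cell cycle genes read lower, at a median of -1.18, and their summed signal went from 19799 to 9137 on A and from 14947 to 6625 on B; Top2a was below the floor on both arrays. All 8 measured neutrophil genes read lower, at a median of -0.57, and the sums of the 5 genes per type above the floor in at least 1 genotype went from 136450 to 105212 on A and from 124867 to 97449 on B; Camp was below the floor. Of 11 measured monocyte and macrophage genes 7 were lower, with sums of 200141 and 204061 on A and of 223266 and 144599 on B. The 3 measured mesothelial and fibroblast genes, Col1a1, Col3a1 and Sparc, were lower at a median of -1.51, with sums of 2365 and 2074 on A and of 10249 and 3274 on B, and Msln, Upk3b, Krt19 and Col1a2 were below the floor.

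Among eosinophil markers, Ccr3 read 3542 and 935, a ratio of -1.92, with Epx and Prg2 below the floor. Erythroid sums on B went from 103212 to 66906, with Hbb-b2 at -1.62, Hba-a1 at 0.04 and an Alas2 bound of -2.79. Of 4 measured B-cell genes 3 were lower, at a median of -0.24, with sums of 41517 and 34282 on A. Among T and NK genes, Gzma gave -0.66, and 5 of 7 were below the floor. Mast cell genes had a median of -0.14 and dendritic genes one of 0.18, over 3 measured genes each. With Cpa3 at its bound of 0.61 the mast cell median became 0.24. The mast cell sums went from 3929 to 4814 on A and from 2470 to 2834 on B. The part of these cell types in the lower proteasome values was not tested.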

How the data were processed

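The deposited values were linear microarray intensities, 1 per probe set. The authors' scanner software, their handling of background and any scaling were not given in the sources used here. Genes were named by the platform annotation, and all 54 proteasome symbols matched the mouse RefSeq table of assembly GRCm38.p6. Within a type both arrays were scaled to a common mean after leaving out 2% at each end (factors 0.999 to 1.001), and ratios, bounds and the floor were formed as described above. Counts below and above 0 and medians were set beside those of all measured genes. The ratio code was tested on simulated data. Every proteasome gene with a ratio or bound is named; of the other pathway lists, those with the 2 highest and 2 lowest ratios and any past 2-fold, and a few more chosen after their values were seen. The members, lists and tests were chosen with earlier results of these data known. Alternatives were 5 other scalings, floors at the 30th and 70th percentile, averaging a gene's probe sets, no suffixed probe sets, 1.5-fold and 3-fold limits and each array type alone, and, chosen after seeing the data, every probe set on its own and leaving out Psmc3ip and Psme3ip1. A comparison of protein sequences was not run. The number of arrays limits the precision. Python 3.11.15, numpy 2.4.6, pandas 2.3.3, statsmodels 0.14.6 and matplotlib 3.10.9 were used.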

Additional observations from a re-analysis of the deposited data

How the results depend on the processing

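Of 148 values recomputed for counts, medians and pair differences, 118 differed from the main value by less than the error (counts by at most 1.5 times). Of 80 medians 5 changed sign: the base under equal medians (0.0035) and bacterial controls, the lid under bacterial controls and without suffixed probe sets, and the activators with the floor at the 30th percentile (-0.0033). Of 302 single-gene ratios 13 changed sign, 7 of them with the bacterial controls, and 300 moved by less than 0.38, the SD over all repeat probe sets. Many of the 302 could not move by construction, so the 300 do not measure stability. Another floor, no suffixed probe sets or 1 array type alone repeats a gene's ratio unless another probe set is read. Averaging can change only the 8 genes with repeat measured probe sets. Every sign change arose under equal medians, quantile, loess or bacterial-control scaling. With the bacterial controls 15 genes were higher and 1 was 2-fold lower, and the medians were -0.28 for core alpha, -0.28 for core beta, -0.49 for the immunoproteasome, 0.15 for the base, 0.030 for the lid and 0.72 for the chaperones. With the floor at the 70th percentile 1 gene was 2-fold lower, the immunoproteasome median was -0.60 and the base median -0.39. Averaging a gene's probe sets left 1 gene 2-fold lower, core alpha at -0.35 and the immunoproteasome at -0.49, and every probe set on its own put the immunoproteasome at -0.60. Without suffixed probe sets 2 genes were lower, 4 higher and 0 2-fold lower, and the lid median was 0.23. Only 6 genes were then measured, and 43.3% of all measured probe sets without a suffix lay below 0. At 1.5-fold 9 genes were lower and 2 higher, and at 3-fold 1 was lower. The shares of all measured genes past these limits were not computed, so these counts have no background beside them. With 1 array type at a time, 7 (B) to 20 (A) genes were lower, 3 (B) to 6 (A) higher and 0 (B) to 2 (A) 2-fold lower. The medians then rested on few genes, in places on 1. Core beta read -0.54 (A, 5 genes) and -0.10 (B, 1 gene), and the immunoproteasome -0.89 (A, 2 genes) and -0.60 (B, 2 genes). The base read -0.39 (B, 1 gene) and -0.051 (A, 4 genes), and the lid -0.53 (B, 3 genes) and -0.17 (A, 6 genes). For the chaperones the values were 0.18 (B, 2 genes) and 0.59 (A, 1 gene). On A alone Psmb8 read -0.13 and Psmd3 -0.29. Where fewer genes were measured, part of the change is in which genes were left; otherwise the cause was not tested. No paired analysis was possible because each genotype had 1 array of each type. Signal over background limits the 5 genes below the floor and the 3 bounds.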
